A study of Arabidopsis thaliana with 27 samples.

Results

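The comparison described here is that of Arabidopsis shoots deprived of iron and phosphate together (−Fe−P) for 52 h with shoots kept on complete medium (+Fe+P) for the same 52 h. It was made across every gene whose mean level over the 27 samples of the series was at least 1 TPM (a measure of transcript level that divides reads by transcript length and then by the sum over the sample), which was 18910 of the 33602 genes listed. It rested on 6 of the 27 samples, 3 of each group. All plants were wild type of the accession Col-0, which were raised on +Fe+P medium to an age of 7 days and then moved to fresh +Fe+P medium, to medium from which iron sulfate was left out (−Fe+P), or to medium without iron and with little phosphate (−Fe−P). They grew in continuous light and shoots were sampled at 39, 52 and 76 h by RNA-seq. No group lacked phosphate alone, so that the part of phosphate at 52 h was read from −Fe−P against −Fe+P. Values of 3 samples are always given in the order of replicates 1, 2 and 3.

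Plants sense phosphate inside the cell through SPX proteins, which bind inositol pyrophosphates and then hold back PHR1 and its relatives. When phosphate falls, PHR1 is released and binds a short promoter sequence, the P1BS site, before genes for phosphate transport, for acid phosphatases and nucleases that free phosphate, and for galactolipids and sulfolipids that take the place of phospholipids. Lack of iron is read by a separate set of helix-loop-helix (bHLH) factors and BRUTUS-type ubiquitin ligases, which raise iron uptake and mobilization, while genes of iron-rich proteins such as ferritins are turned down.

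At 52 h, 842 genes were higher (4.45% of the genes tested) and 150 were lower (0.793%) in −Fe−P than in +Fe+P shoots, at an adjusted p under 0.05 in limma and a change of at least 2-fold on the log2(TPM + 0.5) scale. The median change was 1.49 among the genes called higher and −1.32 among those called lower, and 201 of the former against 23 of the latter changed by at least 4-fold. Of the 28 genes that rose by at least 16-fold, the highest at this pseudocount were AT1G23110, IPS1, PS2 and AT5G03545. The 3 genes that fell by at least 16-fold were NEET, FER1 and MEE3. The median over all genes tested was 0.11 and became −0.01 when the samples were scaled by the median of ratios, so that medians of gene groups below are to be read against 0.11. In bulk tissue, fewer cells of a type and less RNA per cell cannot be told apart.

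The depth recovered from the steps of the low TPM values was 25.6, 50.1 and 46.0 megareads in the +Fe+P samples and 44.3, 31.4 and 34.2 megareads in the −Fe−P samples. At a level close to 1 TPM the typical gene rested on 35 reads. Marker sums are given for +Fe+P, −Fe−P and −Fe+P in this order. For 5 leaf genes they spanned 45100 to 50400, 37200 to 44400 and 35900 to 40000 TPM, and for 10 root genes 424 to 660, 397 to 535 and 468 to 541 TPM. The leaf genes differed among themselves. Means in +Fe+P and −Fe−P were 26400 and 26000 TPM for RBCS1A and 8590 and 7690 TPM for RCA. They were 10100 and 5930 TPM for CAB1, 1710 and 768 TPM for LHCB2.1 and 662 and 399 TPM for GUN5. The sums of 8 seed storage genes were low, at 0.0288 to 0.19, 1.04 to 1.98 and 4.04 to 7.15 TPM, with 4 of the 8 at 0 in all −Fe−P samples. Replicate 1 of −Fe−P stood apart from its group: 173 genes were at least 2-fold from the log2 mean of the other replicates, against 72 and 65 for replicates 2 and 3. It was the lowest replicate in 35 of the 39 genes called higher in the 5 phosphate groups described below, and in all 7 called antenna genes. Leaving it out raised the counts to 1028 higher and 163 lower genes, and its part in single results was not tested beyond the values given without it.

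Promoter sequences before the most changed genes are shown because the 842 genes that rose held the P1BS letters more often than promoters at large. P1BS was searched as GNATATNC on both strands in the 500 bases before each gene start, where 10.7% of 18681 promoters of tested genes held it. It was found in 21.0% of the promoters of genes called higher, in 13.3% of those of genes called lower and in 17 of 28 (60.7%) of those of genes that rose by at least 16-fold. The G-box, CACGTG, the letters bound by many bHLH factors, was in 10.2% of all promoters, 14.4% of those of genes called higher and 9 of the 28. The G-box can share its letters with the abscisic acid element ACGTGNC. Both overlapped in 1750 of the 37897 promoters read, which include those of genes not tested. These matches are descriptions of the letters, not of binding. Among the genes with the largest rises, IPS1, SPX1 and MGDC held no P1BS match in this window. The stretches below are from RefSeq (TAIR10.1), 5′ to 3′ on the strand of the gene, with the P1BS match in capitals. AT5G03545 is at chr5:894516-894581 (plus strand), SPX3 at chr2:18606280-18606367 (plus), PS2 at chr1:27466518-27466605 (minus), PEPC1 at chr1:6092342-6092429 (minus), PAP14, which holds a pair of matches, at chr2:19266513-19266600 (minus) and MGD2 at chr5:6896409-6896462 (plus).
AT5G03545: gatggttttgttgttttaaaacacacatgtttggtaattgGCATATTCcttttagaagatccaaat
SPX3: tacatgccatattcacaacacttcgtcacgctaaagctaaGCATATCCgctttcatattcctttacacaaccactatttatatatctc
PS2: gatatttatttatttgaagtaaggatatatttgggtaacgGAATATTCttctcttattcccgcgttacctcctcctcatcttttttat
PEPC1: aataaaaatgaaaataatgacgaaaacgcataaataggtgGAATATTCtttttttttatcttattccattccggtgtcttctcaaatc
PAP14: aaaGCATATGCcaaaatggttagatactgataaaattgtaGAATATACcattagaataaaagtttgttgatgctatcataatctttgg
MGD2: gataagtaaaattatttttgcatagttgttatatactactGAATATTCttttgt

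The next 3 stretches precede the iron regulators that hold a G-box in this window, here in capitals, which were 3 of 17, against 10.2% of all promoters. BHLH101 and bHLH39, which also rose, held none. BHLH100 is at chr2:17199500-17199585 (minus strand), bHLH38 at chr3:21085297-21085382 (minus) and BTS at chr3:6273856-6273941 (plus).
BHLH100: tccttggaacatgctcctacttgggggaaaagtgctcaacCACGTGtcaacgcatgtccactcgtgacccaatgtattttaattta
bHLH38: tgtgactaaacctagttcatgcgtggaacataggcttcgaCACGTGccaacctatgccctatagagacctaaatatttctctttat
BTS: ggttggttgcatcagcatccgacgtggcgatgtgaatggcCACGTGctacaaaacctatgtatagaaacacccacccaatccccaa

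The share of promoters with P1BS differed between the gene groups. It was 9 of 16 (56.2%) for phosphatases and nucleases, 8 of 19 (42.1%) for membrane lipid remodeling, 6 of 17 (35.3%) for phosphate signaling and 4 of 17 for iron regulators. For phosphate transport it was only 3 of 19 (15.8%). Groups not chosen for phosphate also had high shares, with 5 of 13 (38.5%) for cell wall loosening and 3 of 5 for xylem markers, or low ones, with 1 of 21 for antenna genes. In the comparison of −Fe−P with −Fe+P, it was 37% for 227 genes that were higher and 9.04% for 188 that were lower, below the share of all promoters.

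**Figure D1:**
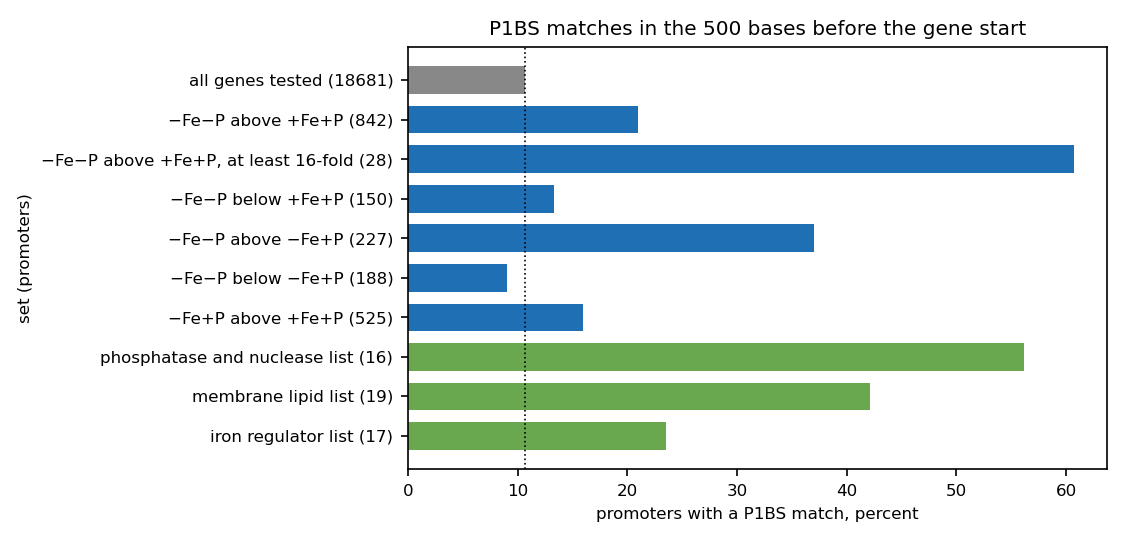
Share of promoters (percent, horizontal axis) with the P1BS letters in the 500 bases before the gene start, for sets of genes named on the vertical axis. The share is 10.7% for all genes tested, 21.0% for genes called higher at 52 h and 60.7% for those at least 16-fold higher.

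Phosphate signaling genes rose in −Fe−P shoots: 8 of the 17 measured were called higher and none lower, with a median of 0.96. IPS1 (AT3G09922, chr3:3050989-3051530), a non-coding RNA that sequesters a microRNA directed against PHO2, was at 0, 0.195 and 0.211 TPM in +Fe+P and at 29.6, 65.5 and 65.0 TPM in −Fe−P samples. Its lowest −Fe−P sample was replicate 1, still far above every +Fe+P sample. The change was 6.34 (SE 0.215, adjusted p = 1.97e-15). AT5G03545, another transcript of phosphate starvation, was at 6.69, 10.7 and 7.65 TPM in +Fe+P and at 372, 676 and 711 TPM in −Fe−P samples, a change of 6.02 (SE 0.293, adjusted p = 4.48e-13).

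The SPX sensors themselves rose. SPX1 went from 16.6, 25 and 19.1 TPM to 377, 552 and 585 TPM, and SPX3 from 0.226, 0.0576 and 0.187 TPM to 13.3, 24.5 and 26.1 TPM. The groups did not overlap for either gene, and the changes were 4.60 (SE 0.193, adjusted p = 4.59e-14) and 5.0 (SE 0.198, adjusted p = 1.76e-14). SPX2 rose by 1.96 and PHO1;H1, a phosphate exporter, by 2.67. PHO2, the ubiquitin conjugase that removes phosphate transporters, was at 60.2, 52.5 and 54.5 TPM in +Fe+P and at 165, 195 and 162 TPM in −Fe−P samples, so that it rose by 1.63 (SE 0.184, adjusted p = 4.42e-07) together with IPS1. PHR1 itself differed by 0.02 (adjusted p = 0.871).

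Of 19 phosphate transport genes 5 were called higher and none lower, and the median of the group, −0.03, was not above that of all genes. PHT1;4, a high-affinity phosphate importer best known from roots, went from 6.79, 6.17 and 6.03 TPM to 38.1, 52.1 and 49.2 TPM, a change of 2.77 (SE 0.198, adjusted p = 3.17e-10). G3Pp1, annotated as a glycerol-3-phosphate transporter, rose by 2.13, PHF1, which lets phosphate transporters leave the endoplasmic reticulum, by 1.82, and PHT1;5, at 1.37 to 2.27 TPM in −Fe−P samples, by 1.82. The plastid and mitochondrial phosphate carriers of the group were not among those called.

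Phosphatases and nucleases were the phosphate group with the highest median, 2.39, or 2.23 without the 3 genes listed at 0 in every +Fe+P sample, and 11 of 16 were called higher and 1 lower. PS2 (AT1G73010, chr1:27464528-27466348), a pyrophosphatase, was at 3.83, 5.79 and 4.71 TPM in +Fe+P and at 244, 433 and 468 TPM in −Fe−P samples, a change of 6.14 (SE 0.236, adjusted p = 1.16e-14). PEPC1, a phosphatase of phosphorylated lipid head groups, was at 1.36, 1.06 and 1.13 TPM against 43.7, 115 and 120 TPM. Replicate 1 was the lowest −Fe−P sample for all 11 called genes, at a median ratio of 0.534 to the mean of the other replicates, while its values stayed above every +Fe+P sample for the genes named here.

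PAP14, PAP25 and PAP5, purple acid phosphatases, were listed at 0 in all +Fe+P samples. PAP14 reached 12.4, 36.2 and 34.6 TPM in −Fe−P samples. PAP17, a purple acid phosphatase also induced by aging, rose from 18.1, 24.2 and 18.6 TPM to 221, 292 and 262 TPM (change 3.64, SE 0.198, adjusted p = 3.08e-12), and RNS1, a secreted ribonuclease, by 3.62. PAP8 was the member that fell, from 12.5, 10.4 and 11.8 TPM to 2.79, 4.01 and 3.22 TPM (change −1.66, SE 0.129, adjusted p = 1.35e-09).

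Genes of membrane lipid remodeling rose on both sides of the exchange. Of 19 measured 12 were called higher and none lower, with a median of 1.87. On the breakdown side, PLDP2, a phospholipase D, rose by 4.18, and SRG3, a glycerophosphodiester phosphodiesterase, went from 6.64, 8.63 and 7.82 TPM to 216, 272 and 246 TPM, a change of 4.90 (SE 0.194, adjusted p = 1.76e-14). SRG3 shares 681 bases with AT3G02030 on the opposite strand, whose reads cannot be told apart here. On the synthesis side, MGDC, a galactolipid synthase of the outer plastid envelope, went from 2.78, 4.11 and 2.86 TPM to 89.6, 163 and 142 TPM (change 5.11, SE 0.262, adjusted p = 9.84e-13). Its relative MGD2 rose by 3.71. The sulfolipid enzymes were already expressed in +Fe+P samples: SQD1 went from 70.7, 76.8 and 74.6 TPM to 482, 491 and 451 TPM and SQD2 from 45.8, 45.2 and 42.9 TPM to 366, 496 and 478 TPM, changes of 2.67 (SE 0.12) and 3.29 (SE 0.136).

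Phosphoenolpyruvate metabolism, whose enzymes bypass steps that use adenylates or phosphate, had 3 of 7 genes called higher. PPCK2, a kinase that activates phosphoenolpyruvate carboxylase, went from 0.15, 0.229 and 0.166 TPM to 8.91, 18.3 and 13.6 TPM (change 4.32, SE 0.205, adjusted p = 3.26e-13). Its relative PPCK1 rose by 2.71 and PPC1, a phosphoenolpyruvate carboxylase, by 1.38. Starch and sugar genes had 8 of 30 called higher and none lower. BAM5, a beta-amylase outside the plastid, went from 2.11, 3.31 and 4.08 TPM to 57.9, 48.0 and 64.2 TPM (change 3.99, SE 0.262, adjusted p = 8.41e-11), and the plastid glucose-6-phosphate carrier GPT2 rose by 2.71.

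**Figure D2:**
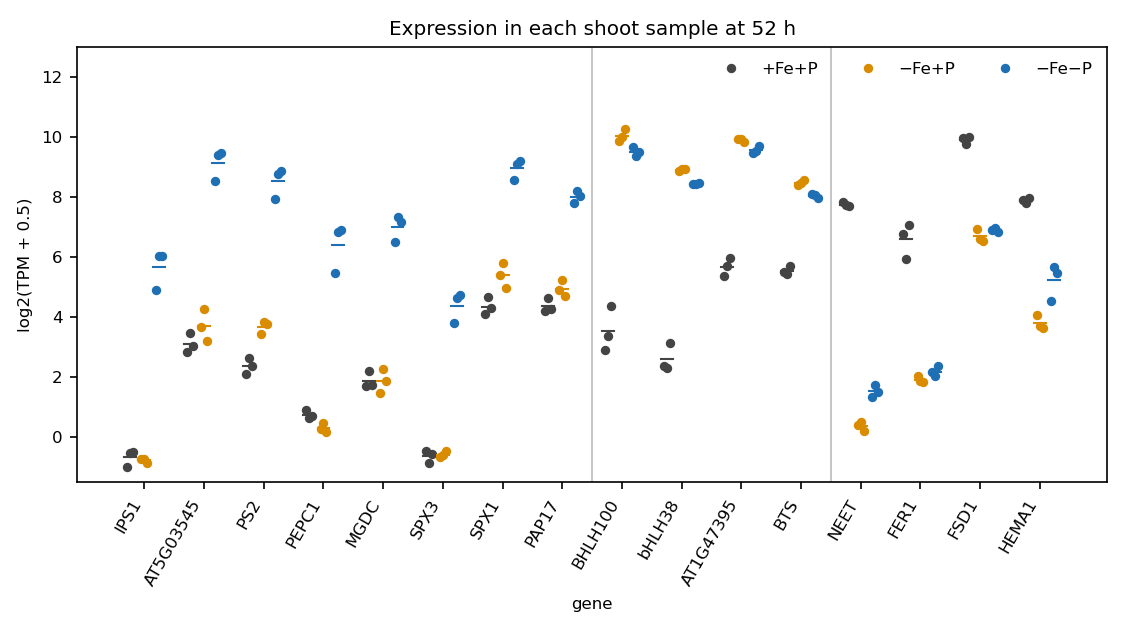
Level of 16 genes, as log2(TPM + 0.5) on the vertical axis, in each sample of +Fe+P, −Fe+P and −Fe−P at 52 h; points are samples and bars are group means. The 8 phosphate genes are highest in −Fe−P samples, whereas the 4 iron regulators are high and NEET, FER1, FSD1 and HEMA1 are low in −Fe+P and −Fe−P samples.

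Iron regulators rose at 52 h. Of 17 measured 11 were called higher and none lower, with a median of 2.14. The 4 bHLH factors of one subgroup rose most. BHLH100 (AT2G41240, chr2:17198037-17199454) was at 6.97, 9.94 and 20.1 TPM in +Fe+P and at 818, 657 and 717 TPM in −Fe−P samples, a change of 5.96 (SE 0.447, adjusted p = 7.36e-10). Its relatives bHLH38, BHLH101 and bHLH39 rose by 5.84, 5.53 and 5.52, and bHLH38 and bHLH39 are near copies between which reads may be divided. The small IRON MAN peptides, signals of iron lack, rose too. AT1G47395 went from 40.5, 51.5 and 62.1 TPM to 708, 750 and 825 TPM (change 3.89, SE 0.301, adjusted p = 1.23e-09), with its near copy AT1G47400 rising by 3.63 and AT2G30766 by 2.29.

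BTS, the ubiquitin ligase that restrains this response, rose from 44.9, 42.4 and 51.4 TPM to 275, 271 and 250 TPM (change 2.51, SE 0.213, adjusted p = 5.81e-09), and PYE, a bHLH repressor, by 1.69. The bHLH factors thought to act above them were not called at 2-fold: bHLH115 differed by 0.43, ILR3 by 0.32, bHLH104 by 0.14 and bHLH34 by −0.37. Unlike the phosphate genes, replicate 1 was the lowest −Fe−P sample for 5 of the 11 called regulators, with a median ratio of 0.995 to the others.

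Iron uptake and transport genes moved in both directions, with 7 of 30 called higher and 4 lower. Those that rose included FRO2 (change 3.0) and FRO3 (2.77), which reduce ferric iron at the plasma membrane and in mitochondria, IRT1 (2.17), the ferrous iron importer, and ZIF1 (2.63), a vacuolar carrier of nicotianamine. IRT1 stayed low, at 1.83, 3.71 and 5.20 TPM in −Fe−P samples. FRO3 was at 25.9, 22.2 and 33.2 TPM in +Fe+P and at 215, 172 and 172 TPM in −Fe−P samples. NRAMP4, which releases iron from vacuoles, rose by 1.8 and OPT3, a phloem transporter, by 1.41. The genes that fell serve nicotianamine and its metal complexes in part: the synthases NAS3 (−2.28) and NAS1 (−1.12) and the carrier YSL1 (−2.14), besides the zinc and iron transporter IRT3 (−1.20).

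Iron storage and iron-sulfur proteins fell, with 8 of 15 called lower, none higher, and a median of −1.08. NEET (AT5G51720, chr5:21009347-21010345), an iron-sulfur protein of plastids and mitochondria, was at 226, 213 and 206 TPM in +Fe+P and at 2.06, 2.85 and 2.33 TPM in −Fe−P samples, the largest fall of all genes tested, at −6.22 (SE 0.237, adjusted p = 1.15e-14). FER1, a plastid ferritin, was at 108, 60.6 and 135 TPM against 3.97, 3.57 and 4.69 TPM (change −4.41, SE 0.359, adjusted p = 3.01e-09). FER1 overlaps AT5G01595 on the opposite strand over 1334 bases. FER4 fell by 2.62 on the log2 scale, and ABCI8, a subunit of the plastid iron-sulfur scaffold, by 2.19.

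The iron-using enzymes SIR and NIR1, sulfite and nitrite reductase, changed by −1.25 and −1.27, and the ferredoxin FED A went from 3116, 2901 and 2974 TPM to 1082, 1110 and 1039 TPM (change −1.48, SE 0.095, adjusted p = 6.05e-11). Of 14 genes of superoxide and peroxide scavenging 4 fell and none rose. FSD1, the iron superoxide dismutase, went from 1002, 874 and 1022 TPM to 120, 124 and 114 TPM, a change of −3.01 (SE 0.149, adjusted p = 5.79e-13). The ascorbate peroxidases SAPX and APX1, which carry heme, changed by −3.13 and −1.55 and the catalase CAT3 by −1.10. The copper-zinc dismutases CSD1 and CSD2 differed by 0.52 and −0.28 and were not called. Among copper and zinc genes 2 of 22 were called higher, BCB and MT2A, and 1 when either −Fe−P replicate 1 or replicate 3 was left out.

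**Figure D3:**
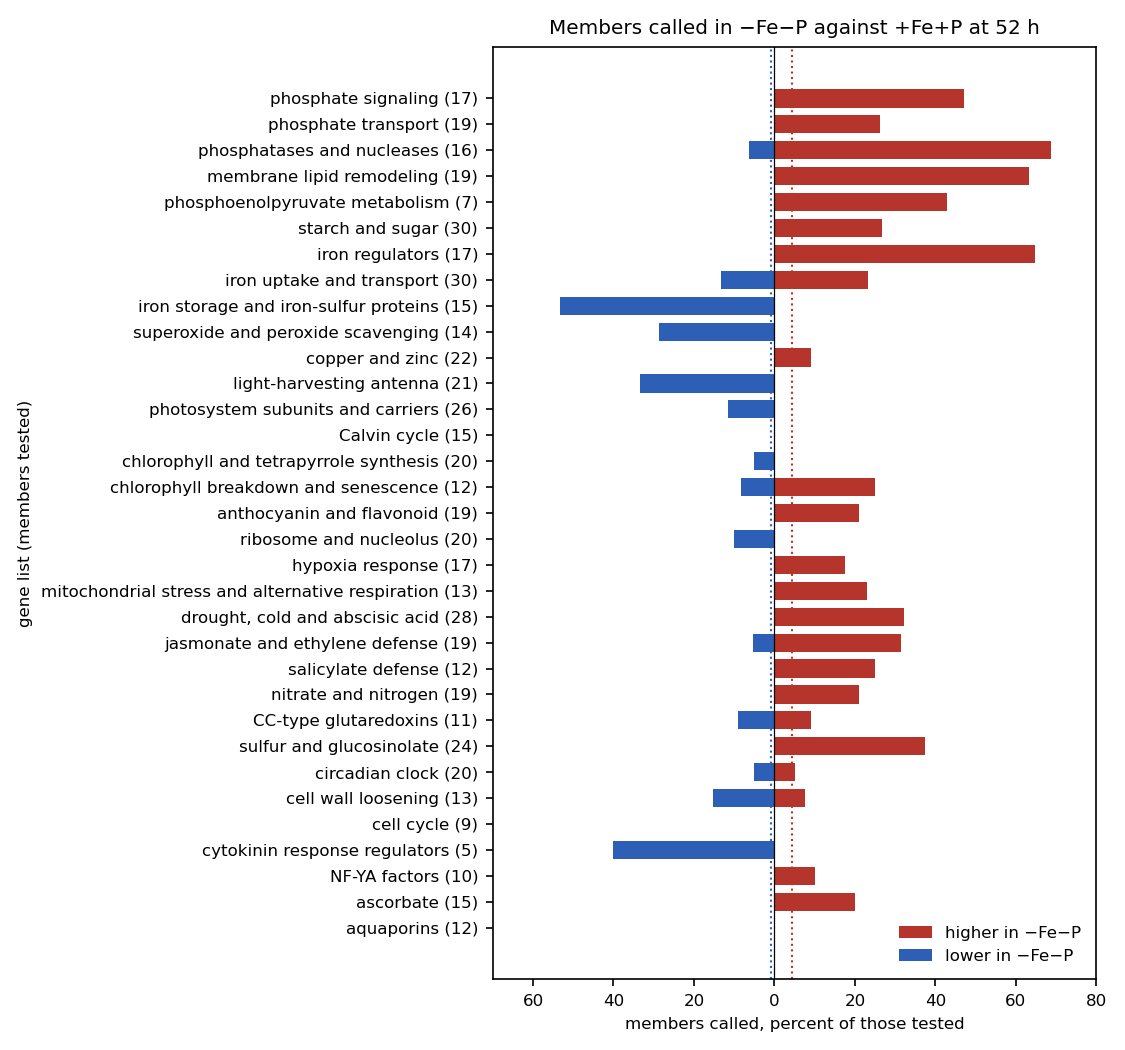
Percent of the measured members of each gene group called higher or lower in −Fe−P than in +Fe+P shoots at 52 h; dotted lines mark the shares over all genes tested, 4.45% and 0.793%. Phosphatases and nucleases, membrane lipid remodeling and iron regulators have most members higher, and iron storage and iron-sulfur proteins has most members lower.

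Photosynthesis genes fell in part. Of 21 light-harvesting antenna genes 7 were called lower and none higher, with a median of −0.83. LHCB3, an antenna protein of photosystem II, was at 2560, 2097 and 2628 TPM in +Fe+P and at 475, 1369 and 1084 TPM in −Fe−P samples. Replicate 1 had the lowest value by far, and the groups did not overlap. The change was −1.44 (SE 0.333, adjusted p = 0.0015) and −0.99 (adjusted p = 0.0143) without that replicate. Without it 2 antenna genes stayed called lower, and without −Fe−P replicate 2 there were 11. Several antenna genes are near copies, among which the reads may be divided.

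Of 26 photosystem subunits and carriers 3 were called lower, all subunits of photosystem I. At an adjusted p under 0.05 without a minimum fold, 21 were lower and none higher, against 2187 and 5443 of all 18910 genes tested. PSAF was at 3219, 2639 and 3597 TPM in +Fe+P and at 1069, 1234 and 1030 TPM in −Fe−P samples, a change of −1.5 (SE 0.122, adjusted p = 3.12e-09), and PSAD-2 and PSAN changed by −1.54 and −1.46. None of 15 Calvin cycle genes was called in limma, and their median was −0.02. At an unadjusted p under 0.05, 2 of them were higher and 2 lower, against 6495 and 2642 of all genes tested. Of 20 genes of chlorophyll and tetrapyrrole synthesis 10 were lower and 1 higher at an adjusted p under 0.05 without a minimum fold. Their median was −0.29. The 1 called lower was HEMA1, the glutamyl-tRNA reductase at the entry of the pathway, which went from 237, 223 and 251 TPM to 22.9, 50.9 and 43.4 TPM (change −2.66, SE 0.245, adjusted p = 2.16e-08). NYC1, a chlorophyll b reductase of chlorophyll breakdown, also fell, from 108, 91.3 and 91.4 TPM to 33.8, 29.6 and 29.7 TPM (change −1.62, SE 0.144, adjusted p = 1.2e-08). In the same group of 12 genes 3 rose, with WRKY53, a regulator of senescence, the most changed at 2.4, but 1 alone was called when +Fe+P replicate 2, or in turn −Fe−P replicate 3, was left out.

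Sulfur genes rose, with 9 of 24 called higher and none lower. SULTR1;3, a sulfate transporter of the phloem, was at 1.78, 2.19 and 1.96 TPM in +Fe+P and at 12.3, 13.4 and 15.0 TPM in −Fe−P samples, a change of 2.5 (SE 0.186, adjusted p = 6.48e-10). LSU1 and ATSDI1, known from sulfur starvation, rose by 1.67 and 1.43. Of 15 ascorbate genes 3 rose. CYT1, the GDP-mannose pyrophosphorylase, went from 98.4, 102 and 99.8 TPM to 229, 265 and 251 TPM (change 1.3, SE 0.091, adjusted p = 2.2e-10), and VTC4, a phosphatase of the same pathway, from 39.9 ± 1.7 TPM to 94.3 ± 3.61 TPM (SD, n = 3; change 1.23, SE 0.102, adjusted p = 4.14e-09). Both series were tight within each group. The third was MIOX1, a myo-inositol oxygenase, at 1.11, which was 0.99 after scaling by the median of ratios.

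Drought, cold and abscisic acid genes had 9 of 28 called higher and none lower, led by GolS2, a galactinol synthase (2.6), and P5CS1, the enzyme at the start of proline synthesis (1.74). Jasmonate and ethylene defense genes had 6 of 19 called higher, among them the regulators JAZ1 (1.47) and MYC2 (1.19), and 1 lower, the defensin PDF1.2 (−1.25), a call lost without +Fe+P or −Fe−P replicate 2. Salicylate genes had 3 of 12 called higher, the regulators SARD1, WRKY70 (2.04) and CBP60G (2.03), all lowest in −Fe−P replicate 1. SARD1 went from 1.65, 2.76 and 2.2 TPM to 7.11, 11.7 and 16.4 TPM, and it overlaps GIP2 on the opposite strand over 640 bases.

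Anthocyanin and flavonoid genes had 4 of 19 called higher, the MYB regulators MYB90 (1.55) and PAP1 (AT1G56650, 1.21) and the enzymes TT7 (1.07) and DFR (1.01). The last 3 were close to the 2-fold threshold. With median-of-ratios scaling, or with replicate 1 of +Fe+P or of −Fe−P left out, 2 were called, and with +Fe+P replicate 2 left out there were 7. Hypoxia genes had 3 of 17 called higher, 5 once +Fe+P replicate 2, or in turn −Fe−P replicate 1, was left out, and 1 once −Fe−P replicate 3 was. Nitrate and nitrogen genes had 4 of 19 called higher, led by AT1G68670 (1.75) and AT1G25550 (1.71), both of the MYB-type family that includes nitrate-induced repressors of phosphate starvation genes. NF-YA7, a subunit of a CCAAT-binding factor, rose from 6.76, 6.99 and 8.19 TPM to 29.6, 39.8 and 37.9 TPM (change 2.21, SE 0.125, adjusted p = 5.74e-12) and was the 1 of 10 NF-YA genes called.

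Of 20 ribosome and nucleolus genes 2 were called lower, FIB2 (−1.31) and RACK1B_AT (−1.07), and the median was −0.74. At an adjusted p under 0.05 without a minimum fold all 20 were lower, against 2187 of all 18910 genes tested. FIB2, a fibrillarin of the nucleolus, was at 48.4, 53.2 and 44.2 TPM in +Fe+P and at 25, 17.0 and 16.7 TPM in −Fe−P samples, which did not overlap. The count called was 4 without −Fe−P replicate 1. Of 5 cytokinin response regulators 2 fell: ARR15 went from 7.40, 7.09 and 6.67 TPM to 1.51, 1.52 and 1.75 TPM (change −1.85, SE 0.114, adjusted p = 2.66e-11) and ARR6 changed by −1.64. Of 13 cell wall loosening genes 2 fell and 1 rose, with a median of −0.07: the expansins EXPA1 and EXPA8 changed by −1.74 and −1.77, and TCH4, a touch-induced wall enzyme, by 3.21. No gene was called in limma among 9 cell cycle genes, 12 aquaporins and 3 heat shock genes. At an unadjusted p under 0.05, 1, 0 and 0 of them were higher and 2, 1 and 0 lower. Of all 18910 genes tested, 6495 were higher and 2642 lower at that threshold.

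Outside these groups, AT1G23110 rose from 0.315, 0.894 and 0.31 TPM to 65.9, 93.4 and 86.5 TPM (change 6.39, SE 0.256, adjusted p = 2.82e-14). It shares 566 bases with AT1G05787 on the opposite strand. The order of genes near 0 in +Fe+P samples depends on the pseudocount: with 0.1 in place of 0.5, AT1G23110 changed by 7.2 and IPS1 by 7.91, against 6.39 and 6.34. AT3G25240, at 0, 0 and 0.0676 TPM in +Fe+P and 17.0, 31.7 and 30.4 TPM in −Fe−P samples, rose by 5.63. MEE3, a MYB-like protein, fell from 43.2, 40.1 and 45.4 TPM to 1.57, 2.66 and 2.4 TPM (change −4.02), and ENH1, a plastid rubredoxin, from 238, 208 and 206 TPM to 26.5, 34.8 and 29.5 TPM (change −2.83). The study mapped variation among accessions in the expression of photosynthesis-related genes, and 12 genes at the loci that it followed up were tested here. In −Fe+P against +Fe+P 4 of them were called higher and 1 lower, and in −Fe−P against −Fe+P 0 were higher and 1 lower. In −Fe−P against +Fe+P 4 rose, the neighbors AT1G13607 (3.08), AT1G13608 (3.93), AT1G13609 and AT1G13610 (1.11). The most abundant, AT1G13609, a defensin-like protein, went from 63.0, 97.2 and 102 TPM to 1366, 1459 and 1511 TPM (change 4.07, SE 0.269, adjusted p = 8.81e-11), whereas ANTR2, the phosphate and ascorbate carrier of the plastid, differed by −0.01 (adjusted p = 0.915).

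To separate the share of phosphate from that of iron, −Fe−P was compared with −Fe+P at 52 h. In that comparison 229 genes were higher in −Fe−P (1.21% of the genes tested) and 188 were lower (0.994%). In −Fe+P against +Fe+P, which shares the +Fe+P samples with the main comparison, 526 genes were higher (2.78%) and 130 were lower (0.687%). Among the phosphate groups, those called higher were 7 of 17 signaling genes, 6 of 19 transport genes, 11 of 16 phosphatases and nucleases and 11 of 19 lipid genes, with none lower. IPS1 was at 0.109, 0.112 and 0.0537 TPM in −Fe+P samples, and differed by 6.42 between −Fe−P and −Fe+P. SPX1 was at 41.8, 55.5 and 31.2 TPM in −Fe+P, above every +Fe+P sample, and differed by 3.56. The iron regulators showed no such difference in limma: 0 of 17 were called, with a median of −0.34, beside −0.03 over all genes. At an unadjusted p under 0.05, 2 were higher and 3 lower, against 2755 and 4293 of all 18910 genes tested. BHLH100 was at 931, 1015 and 1242 TPM in −Fe+P samples and differed by −0.54 (SE 0.447, adjusted p = 0.412), so that its interval is wide.

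Some genes of iron-using pathways fell less in −Fe−P than in −Fe+P shoots. HEMA1 was at 16.3, 12.5 and 12 TPM in −Fe+P, below all −Fe−P samples, a difference of 1.42 (adjusted p = 0.000104). NYC1 was at 16.1, 10.7 and 12 TPM (difference 1.25, adjusted p = 6.84e-07), ENH1 at 14.1, 11.1 and 12.6 TPM (1.23, adjusted p = 2.99e-06) and NEET at 0.827, 0.917 and 0.643 TPM (1.17, adjusted p = 0.000645). These levels of NEET were close to the pseudocount of 0.5, on which the size of its difference therefore depends. FER1 and FSD1, by contrast, differed by 0.27 and 0.20 and were not called. Among antenna genes 0 of 21 were called in limma, with 9 higher and 0 lower at an unadjusted p under 0.05. Of all 18910 genes tested, 2755 were higher and 4293 lower at that threshold. Of the 31 photosynthesis-related genes that the study chose on these samples, 7 were called higher against −Fe+P and none lower, and 21 were higher and 1 lower at an unadjusted p under 0.05. Against +Fe+P 1 was called higher and 1 lower, with a median of −0.52. At an adjusted p under 0.05 without a minimum fold, 2 were higher and 17 lower, against 5443 and 2187 of all genes tested. Since the 31 genes were chosen on these samples, these counts are not independent evidence. AAP4, an amino acid permease, and NF-YA10 were among them, with differences of 1.48 and 1.44.

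Other genes that rose under iron lack alone did not pass the test, or rose less, when phosphate was lacking too. Of 13 genes of mitochondrial stress and alternative respiration 7 were called higher in −Fe+P and 3 in −Fe−P against +Fe+P, and 4 were lower in −Fe−P than in −Fe+P. AT5G51440, a small heat shock protein of mitochondria, was at 1.87, 1.59 and 1.98 TPM in +Fe+P, at 1.79, 1.79 and 1.41 TPM in −Fe−P and at 21.9, 19.1 and 22.9 TPM in −Fe+P samples. The difference between −Fe−P and −Fe+P was −3.33 (adjusted p = 3.17e-12). AT2G21640 was at 61.7, 58.5 and 53.6 TPM in −Fe+P against 10.9, 18.2 and 16.8 TPM in −Fe−P samples (difference −1.92, adjusted p = 3.44e-08). The hypoxia factor ERF71 differed by −2.25. AT4G36700, a cupin that was called against +Fe+P, was lower in −Fe−P than in −Fe+P, at 71.2, 50.9 and 55.8 TPM against 155, 172 and 166 TPM (difference −1.48, adjusted p = 0.0105).

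Ribosome and nucleolus genes were lower in −Fe−P than in −Fe+P, with 5 of 20 called, 8 without −Fe−P replicate 1 and 3 without replicate 2. All 20 were lower at an unadjusted p under 0.05, as were 4293 of all 18910 genes tested. FIB2 was at 56.0, 47.5 and 38.9 TPM in −Fe+P and differed by −1.27 (adjusted p = 6.2e-07). The telo-box AAACCCTAA was in 9.57% of the promoters of the 188 genes lower than in −Fe+P and in 3.84% of all promoters, and in 1 of the 20 promoters of ribosome and nucleolus genes. EXPA1 and ARR15 were also lower than in −Fe+P, by −1.17 and −1.23, and SULTR1;3, NF-YA7, CYT1 and VTC4 were higher, by 2.53, 2.0, 1.22 and 1.38.

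**Figure D4:**
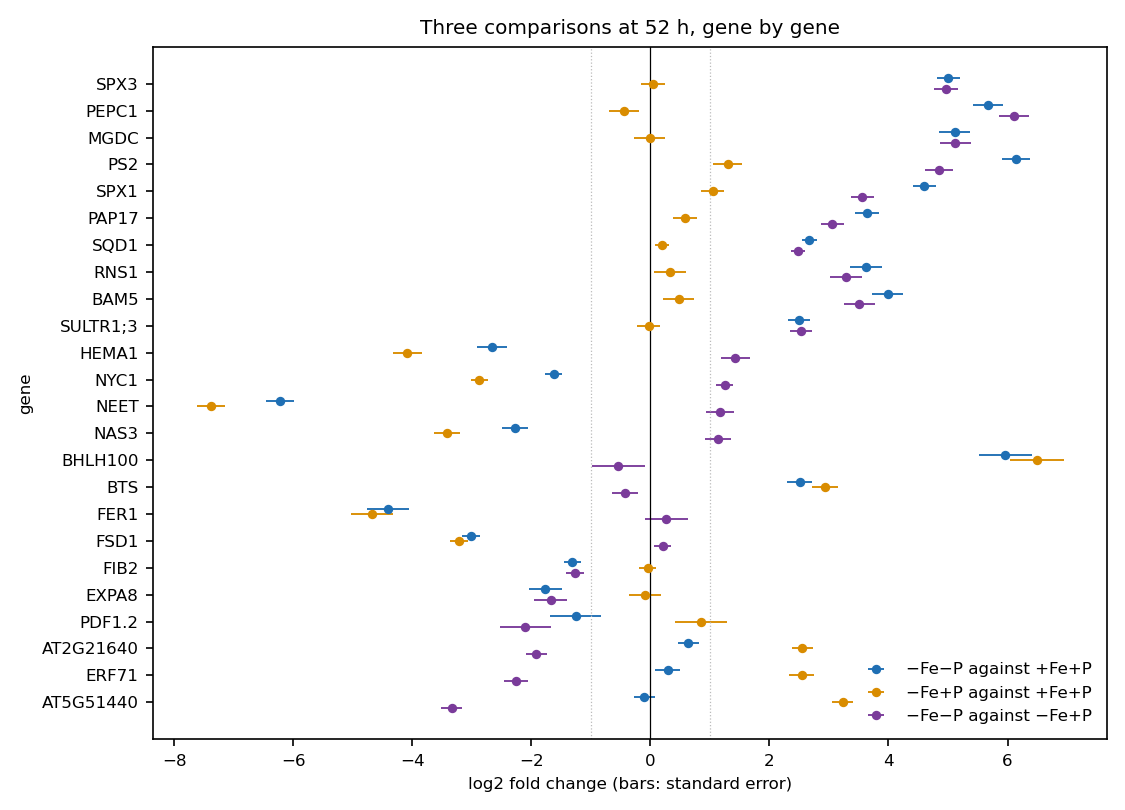
Change of 24 genes on the log2(TPM + 0.5) scale, with its standard error, for each pair of the 3 media at 52 h (n = 3 per group). The phosphate genes differ between −Fe−P and −Fe+P, for SPX3 by 4.96, whereas BHLH100 differs by −0.54.

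The response at 52 h lay between those at 39 and 76 h in number of genes. Against +Fe+P of the same time, 274 genes were higher at 39 h (1.45%) and 104 lower (0.55%), and 1199 were higher at 76 h (6.34%) and 491 lower (2.6%). The change of the response itself was tested. From 39 to 52 h the difference between −Fe−P and +Fe+P moved up for 201 genes (1.06%) and down for 11 (0.0582%), and from 52 to 76 h it moved up for 107 (0.566%) and down for 37 (0.196%). The first of these counts depended on single libraries: 69 genes were called in either direction without −Fe−P 52 h replicate 3, 86 without +Fe+P 39 h replicate 2, 98 without −Fe−P 52 h replicate 2, 118 without +Fe+P 52 h replicate 2 and 435 without −Fe−P 52 h replicate 1. Replicate 1 of −Fe−P at 39 h had 671 genes at least 2-fold from the log2 mean of its other replicates. Without it 296 genes were called, against 212 with all samples.

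Each phosphate group had called genes at every time, and some genes kept rising. IPS1 changed by 4.78 at 39 h, 6.34 at 52 h and 8.81 at 76 h, with a gain of 2.47 from 52 to 76 h (adjusted p = 5.64e-05). SPX3 changed by 4.05, 5.0 and 7.15, a gain of 2.14 (adjusted p = 0.000116), and NPC4, a phospholipase C, by 0.83, 2.14 and 4.16, a gain of 2.02 (adjusted p = 0.00298). For AT5G03545, at 5.76, 6.02 and 6.52, neither step passed. Of the phosphatases and nucleases 8, 11 and 11 of 16 were called higher at 39, 52 and 76 h, and of the lipid genes 9, 12 and 13 of 19.

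Iron genes had moved by 39 h, and some of them came back by 76 h. The change of response from 52 to 76 h was called for 0 of 17 iron regulators and 0 of 30 iron uptake and transport genes. Among 15 genes of iron storage and iron-sulfur proteins 2 moved up. Of the 17 iron regulators 11, 11 and 10 were called higher at 39, 52 and 76 h. NEET changed by −6.34, −6.22 and −4.35, ENH1 by −3.89, −2.83 and −1.42 and FER1 by −5.15, −4.41 and −2.45, and the return from 52 to 76 h was 1.86, 1.41 and 1.95 (adjusted p = 0.00195, 0.000717 and 0.0254). The return of FER1 lost its call, with an adjusted p of up to 0.0844, when any of 5 libraries was left out. Some genes induced by iron lack also came back: AT4G36700 changed by 4.70, 5.92 and 3.22 and AT1G62420 by 4.26, 5.08 and 2.69, losses of −2.71 and −2.40 (adjusted p = 0.00865 and 2.21e-05).

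Some other genes differed little at 39 h. Among the genes with the largest gains from 39 to 52 h, LOX4, a lipoxygenase of jasmonate synthesis, changed by 0.36 at 39 h and 2.96 at 52 h, a gain of 2.6 (adjusted p = 0.00361). AT4G29780, AT1G66090, ACS7 and PUP18 gained 3.14, 2.68, 2.47 and 2.43, but these calls were lost on leaving out any of 10, 4, 10 and 9 libraries, respectively. LHB1B1, an antenna gene, changed by 0.55 at 39 h, −1.28 at 52 h and −2.29 at 76 h, a loss of −1.82 by 52 h (adjusted p = 0.0111). Antenna genes called lower numbered 0, 7 and 15 of 21 at the 3 times, ribosome and nucleolus genes 0, 2 and 13 of 20, and anthocyanin genes called higher 0, 4 and 11 of 19. The change of response itself was called for few of them. From 39 to 52 h it was 2 antenna genes, both down, and 0 of the other groups. From 52 to 76 h it was 2 anthocyanin genes, both up, and 0 of the others. The group medians at the 3 times were −0.27, −0.83 and −1.37 for antenna genes and −0.27, −0.74 and −1.22 for ribosome and nucleolus genes. For anthocyanin genes they were 0.51, 0.68 and 1.38.

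**Figure D5:**
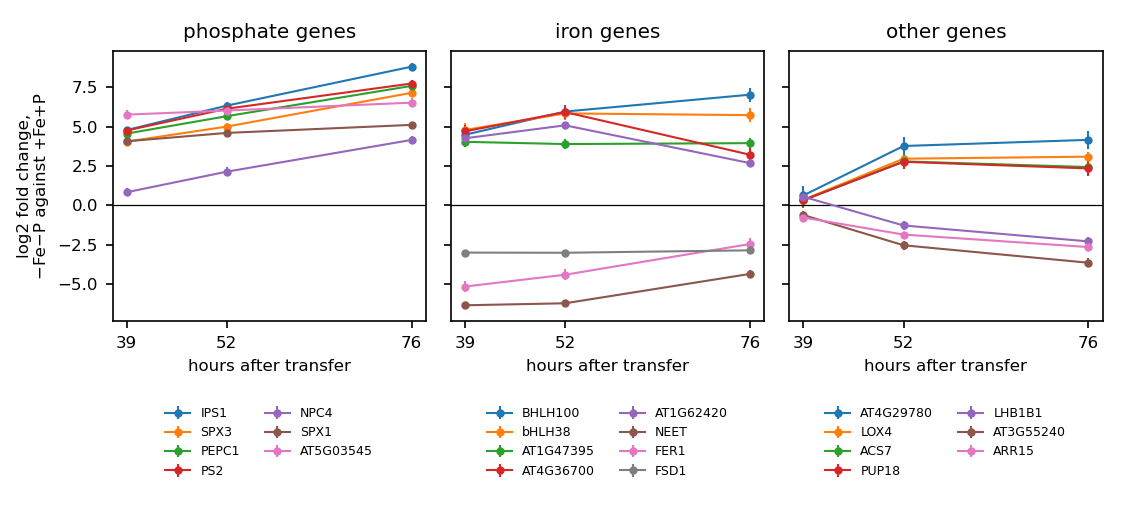
Change in −Fe−P against +Fe+P shoots of the same time on the log2(TPM + 0.5) scale, with its standard error (vertical axis), at 39, 52 and 76 h (n = 3 per group), for phosphate genes, iron genes and others. IPS1 rises from 4.78 to 8.81, NEET goes from −6.34 to −4.35 and LHB1B1 from 0.55 to −2.29.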

How the data were processed

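RNA-seq was made from shoots of 27 samples in 9 groups of 3, with poly(A) selection by oligo-dT beads, KAPA RNA HyperPrep libraries and a NextSeq 500. The authors deposited 1 table of TPM values per gene for the whole series. HISAT2, DESeq2 and the TAIR10 genome are named in the submitters' processing notes, and tool versions and the strand setting are not given in the sources used here. Without strand, reads of overlapping and antisense genes cannot be told apart. Replicates are called biological, but nothing says which cultures they came from, so p-values measure the spread between these samples. Since TPM holds no counts, log2(TPM + 0.5) was fitted, for the 18910 genes that averaged 1 TPM or more, in limma 3.58.1 (R 4.3.3) with 9 group means and a mean-variance trend, and p-values were adjusted over all genes (Benjamini-Hochberg). A gene was called at an adjusted p under 0.05 and at least 2-fold. The script was tested on simulated data with independent normal noise. They held no deviating replicate, so that test does not cover samples such as replicate 1 of −Fe−P. Depth was recovered from the whole-read steps of TPM values, within a tolerance of 0.02 reads.

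The members and the 39 gene lists were chosen with earlier results of these data known. Genes were named by rule: the 10 largest rises and 10 largest falls among called genes without overlap between samples and with at least 5 TPM in the higher group, up to 4 called members of each list, the 5 highest and 5 lowest in −Fe−P against −Fe+P and in each change of response, and genes that the study names. Other list members named were chosen after their values were seen. Medians of lists stand beside those of all genes, with no test. The alternatives were pseudocounts of 0.1 and 1, no filter or one at 5 TPM, a fit limited to the samples compared, scaling by the median of ratios, a replicate block, eBayes without trend or robust, no minimum fold, and leaving out each replicate. RefSeq TAIR10.1 gave symbols and promoters. Of the 33602 gene IDs 32835 matched it.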

Additional observations from a re-analysis of the deposited data

Results flagged for a closer look

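These genes differed in their −Fe−P response between times, by limma's test of the difference itself. From 39 to 52 h the change of response on the log2 scale was 3.14 for AT4G29780, 2.68 for AT1G66090, 2.6 for LOX4, 2.47 for ACS7, 2.43 for PUP18, −1.92 for AT3G55240, −1.82 for LHB1B1, −1.35 for AT5G67390 and −1.08 for ARR15. From 52 to 76 h it was 2.47 for IPS1, 2.33 for AT3G25795, 2.14 for SPX3, 2.02 for NPC4, 1.95 for FER1, −1.58 for AT3G02480, −1.7 for AT3G10040, −1.7 for GATA12, −2.4 for AT1G62420 and −2.71 for AT4G36700. The calls of AT4G29780, ACS7, PUP18, AT1G66090, FER1 and AT3G02480 were lost when any of 10, 10, 9, 4, 5 and 7 libraries, respectively, was left out, with adjusted p up to 0.114, 0.121, 0.111, 0.0847, 0.0844 and 0.0803. That of AT5G67390 was lost without −Fe−P 52 h replicate 3 (adjusted p = 0.0522). The calls of the other genes named here were kept in each of these runs.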

How the results depend on the processing

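Of 162 named genes 139 kept their direction and side of the adjusted p threshold in −Fe−P against +Fe+P at 52 h under every alternative. Of 2402 alternative values 9 reversed, 39 were weaker and 7 stronger. These labels left the minimum fold aside, so they do not count calls lost on fold alone. With the median of ratios, for example, MT2A, DFR and MIOX1 changed by 0.89, 0.88 and 0.99 and lost their calls in this way. Without a minimum fold 5443 genes were higher and 2187 lower than in +Fe+P, 1848 higher and 3283 lower than in −Fe+P, and 793 and 1038 changed their response from 39 to 52 h and from 52 to 76 h. At a mean of 5 TPM fewer genes were tested, with 644 higher, 95 lower and 69 changed from 52 to 76 h. The change from 39 to 52 h numbered 65 genes in a fit of only the samples compared and 143 with no filter, against 212 genes, and the cause was not tested. Scaling by the median of ratios gave 692 higher and 209 lower genes against +Fe+P, so that 76.8% in place of 84.9% of the called genes were higher, and 252 and 154 against −Fe+P. Leaving out 1 replicate gave 716 to 1028 higher and 128 to 180 lower genes against +Fe+P, 205 to 299 and 139 to 281 against −Fe+P, 69 to 435 for the change from 39 to 52 h and 103 to 170 for that from 52 to 76 h. The values that reversed belonged to genes that were not called, all near 0: on leaving out 1 replicate LAG13 ranged from −0.108 to 0.151, ANTR2 from −0.059 to 0.027, GPAT8 from −0.148 to 0.043, AT3G21470 from −0.227 to 0.169 and AT3G16120 from −0.233 to 0.041, and NF-YA10 was at −0.006 with the median of ratios.

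With the replicate number as a block the counts were 842 and 150, with 990 of the 992 called genes shared. The numbers did not pair the samples: same-numbered +Fe+P and −Fe−P samples deviated from their group means with correlations of −0.0863, −0.131 and −0.00422. Genes just above 1 TPM rest on about 35 reads, which limits the precision of the low genes.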
